A study of Mus musculus with 123 samples.

Results

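The cells described here are single cardiomyocytes of the mouse heart at embryonic day 9.5 (E9.5), ranked by how much messenger RNA they held from genes of cell division. The series holds 123 single cells isolated for αMHC reporter expression from αMHC-GFP mouse hearts, of which 42 were labelled E9.5, 29 E12.5 and 52 P1 (postnatal day 1). The reporter is driven by the promoter of Myh6, so the sort itself favoured cells that express sarcomere genes, and no group carries a treatment. Of the 42 E9.5 cells, 39 held at least 1000 CPM (counts per 1000000 counts of the cell) of Ttn, Actc1, Myh6 and Tnnt2 together and were kept as cardiomyocytes. The 3 cells left out held 4.35, 75.9 and 176 CPM of these genes. The members were chosen by a score measured in these same cells, the summed CPM of Mki67, Top2a, Cenpf, Nusap1, Tpx2, Kif11, Ccnb1, Ccna2, Cdk1 and Birc5. The 13 cells with the highest score form the high-cycling group, the 13 with the lowest form the low-cycling group, and these 26 cells of 123 are compared below, with the 13 cells between them given as the middle group.

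A dividing cell copies its DNA in S phase and separates the copies in mitosis. Genes for the replication machinery are transcribed mainly around the entry into S phase, and genes for the spindle, the kinetochore and cytokinesis mainly in G2 and M phase. The 10 score genes belong almost wholly to the later wave. Embryonic cardiomyocytes divide while they already hold contractile sarcomeres, and the heart grows by these divisions before birth.

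No label names an animal, litter or chip, so the E9.5 cells were treated as 1 sample and the groups were not tested against each other. The values below describe these 26 cells. The groups were cut from the same cells in which all other genes were read, so counts of genes past a threshold are descriptions of this cut. Each cell was reduced at random to 250000 counts before genes were compared, so 1 count in 1 cell is 4 CPM. A gene was called higher or lower when its summed level differed by 2-fold or more and in the same direction within each of the naming sets of cells, those with titles starting C and those starting N530. Titles stand for no stated batch, but the sets differed in depth. The 11 C cells held 268301 to 588443 counts each, and the 28 N530 cells held 1437114 to 6351742. The high-cycling group held 2 C and 11 N530 cells and the low-cycling group 6 C and 7 N530 cells, so values within each set are given beside many of the main ones. Within-set values compare the 3 highest with the 3 lowest C cells and the 9 highest with the 9 lowest N530 cells.

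The promoters of several genes that carry the score or the mitosis comparison below show the sequence elements known from genes of the late cell cycle. The CHR element (letters TTTGAA) is known as a binding site of the DREAM and MuvB complexes, which repress late cell cycle genes in resting cells and take part in their activation later, and the CCAAT box is known as a binding site of NF-Y. Stretches of 120 bases before the RefSeq gene start (build GRCm38.p6) follow for 5 genes, written on the gene's strand, with TTTGAA and CCAAT in capitals on either strand (TTCAAA and ATTGG on the reverse strand). Top2a (topoisomerase II alpha, chr11:99024190-99024309, minus strand), Cdk1 (the mitotic kinase, chr10:69352913-69353032, minus strand) and Kif11 (a spindle motor, chr19:37376262-37376381, plus strand) belong to the score. Cdc20 (chr4:118437344-118437463, minus strand) and Ube2c (chr2:164769809-164769928, plus strand) act in the anaphase-promoting pathway and lie outside it.
Top2a: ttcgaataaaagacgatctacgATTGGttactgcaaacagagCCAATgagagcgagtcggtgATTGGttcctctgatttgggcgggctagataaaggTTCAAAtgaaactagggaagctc
Cdk1: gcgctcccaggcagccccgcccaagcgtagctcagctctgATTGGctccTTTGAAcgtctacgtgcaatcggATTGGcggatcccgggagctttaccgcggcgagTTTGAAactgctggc
Kif11: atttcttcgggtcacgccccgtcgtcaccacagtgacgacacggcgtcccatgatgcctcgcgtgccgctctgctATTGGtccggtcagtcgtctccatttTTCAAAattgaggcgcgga
Cdc20: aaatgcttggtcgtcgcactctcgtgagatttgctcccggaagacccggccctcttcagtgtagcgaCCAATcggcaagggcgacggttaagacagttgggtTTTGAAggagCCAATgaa
Ube2c: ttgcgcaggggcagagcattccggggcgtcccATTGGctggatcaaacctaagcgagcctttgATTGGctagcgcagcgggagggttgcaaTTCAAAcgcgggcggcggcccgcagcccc

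These promoters were picked from those that hold both elements in the 120 bases, and not by counts alone. Ckap5, Ect2, Ckap2 and Ckap2l were passed over, although they held both elements and more high-cycling counts than Cdc20. Their nearest TTTGAA stood 40, 109, 96 and 25 bases from the start. The distance from the nearest TTTGAA to the start was 18 bases in Top2a, 10 in Cdk1, 14 in Kif11, 13 in Cdc20 and 24 in Ube2c. Over the whole 250 bases before the start, TTTGAA on either strand stood in 16.0% of 32851 RefSeq promoters, CCAAT in 33.9% and both in 5.55%. Among 72 promoters of the 64 mitosis and cytokinesis genes that matched, of 75, the shares were 36.1%, 70.8% and 29.2%. The sarcomere genes gave 10.8%, 30.8% and 6.15% of 65 promoters, with 50 of 59 genes matched. Only 37 of 50 DNA replication genes matched, too few for their shares to be read. The letters do not overlap each other, and a match describes the sequence without showing that a factor binds there.

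The score ran from 10874 CPM to 0. High-cycling cells spanned 2602 to 10874 CPM with a median of 5232, middle cells 363 to 2532, and low-cycling cells 0 to 310 with a median of 77.1. The last high-cycling cell held 2602 CPM and the first cell outside 2532 CPM, while the last middle cell held 363 CPM and the first low-cycling cell 310 CPM. The upper boundary thus falls between cells of nearly equal score.

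**Figure D1:**
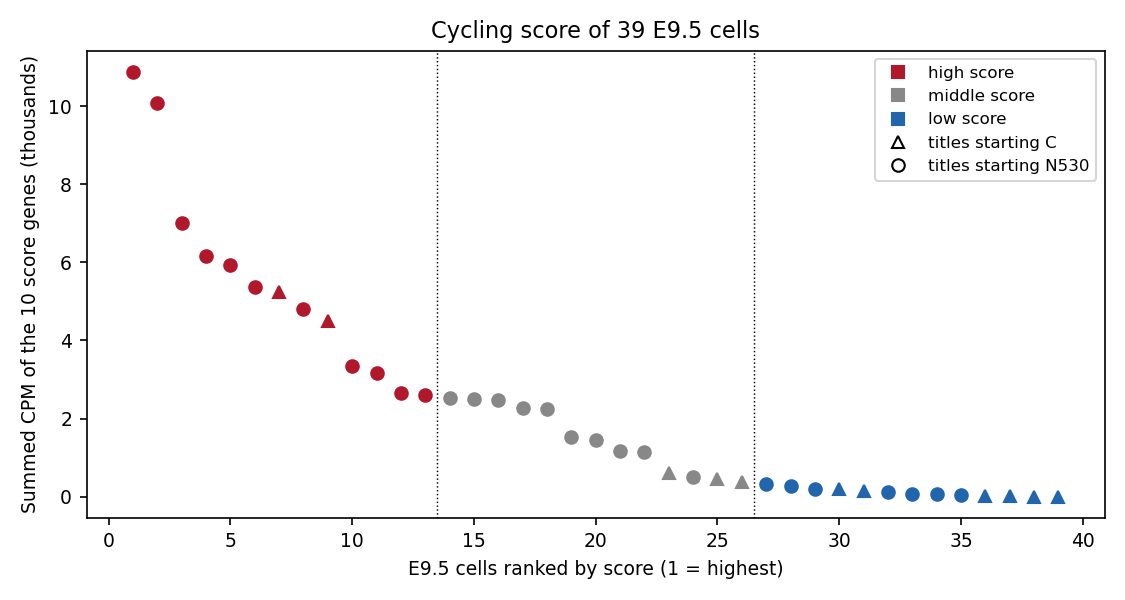
Each point is 1 of 39 E9.5 cells, ranked from left to right by the summed CPM of the 10 score genes (axis in units of 1000 CPM), with triangles for titles starting C, circles for titles starting N530 and dotted lines at the group limits. High-cycling cells lie between 2602 and 10874 CPM and low-cycling cells between 0 and 310 CPM.

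The score genes themselves set the groups, and their values show what the cut is made of. Mki67, the marker of proliferating nuclei known as Ki-67, ranged from 0 to 4392 CPM in high-cycling cells with a median of 332, and from 0 to 272 with a median of 0 in low-cycling cells. It was found in 10, 8 and 6 of 13 high-cycling, middle and low-cycling cells. Top2a, which untangles DNA before chromosomes separate, ranged from 28 to 3772 CPM (median 1124) in high-cycling cells and from 0 to 192 (median 4) in low-cycling cells, and was found in every high-cycling cell. Cenpf, a kinetochore protein, was found in 12 and 5 cells, with medians of 340 and 0 CPM. Cdk1 was found in 10 of 13 high-cycling, 6 of 13 middle and 0 of 13 low-cycling cells at 250000 counts, and in 10, 8 and 4 cells at full depth. Ccnb1, the cyclin that activates Cdk1 for mitosis, was found in 11 and 2 cells, and Ccna2, the cyclin of S and G2 phase, in 9 and 1. In Ccna2 1 high-cycling cell supplied 79.7% of the group's counts. Top2a was also found in 8 low-cycling cells, at no more than 192 CPM.

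Mitosis and cytokinesis genes outside the score were higher in the high-cycling cells almost throughout. Of 75 such genes in the table, 66 reached a mean of 10 CPM over the 39 cells, the other 9 did not. Of these 66, 40 were called higher, where 13.1% of all 8063 genes were, and 0 were called lower, where 14.5% of all genes were. By the 2-fold difference alone, 54 were higher and 1 was lower, against 28.9% and 30.3% of all genes. The same shares of all genes stand behind the counts of each list below. The median log2 ratio was 3.44, beside -0.08 for all genes, with 4.09 within the C cells and 2.13 within the N530 cells. In these ratios a group without a count was set at 3 counts, so 13 of the 66 ratios are bounds. Summed over the list, a high-cycling cell held 2776 to 17084 CPM with a median of 8664, a middle cell 1836 to 10124 with a median of 3964, and a low-cycling cell 196 to 9068 with a median of 1524. The ranges overlap, with low-cycling cells 15, 18, 6 and 26 at 9068, 4972, 3432 and 3368 CPM, above the lowest high-cycling cell.

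Spc25, a subunit of the Ndc80 complex that ties chromosomes to spindle fibres, ranged from 0 to 652 CPM in high-cycling cells with a median of 80. It was found in 7 of 13 high-cycling and 7 of 13 middle cells and in none of the low-cycling cells, at full depth as well. Against a limit of 3 counts over the low-cycling group, its level was at least 209-fold higher, with log2 ratios of 6.40 within C and 2.13 within N530 cells. Ndc80 itself was found in 7 and 1 cells (log2 ratio 3.43, or a bound of 7.22 without the single low-cycling C cell that held it, cell 9). Cenpe, the kinetochore motor, was found in 11 high-cycling cells, 6 middle cells and 2 low-cycling cells. In the high-cycling and in the low-cycling group 1 cell held most of the counts, and the log2 ratio of 2.31 became 1.07 without high-cycling cell 36 and 4.09 without low-cycling cell 18.

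Most genes given here of the central spindle and of cytokinesis were also higher. Racgap1, part of the centralspindlin complex that positions the cleavage furrow, was found in 9, 6 and 1 of 13 cells, at 0 to 736 CPM (median 28) in high-cycling cells and at 8 CPM in the single low-cycling cell that held it. The ratio was 203-fold with a counting interval of 55.7 to 1678, and its log2 value of 7.66 was 6.90 without high-cycling cell 40 (119.7-fold, counting interval 32.7 to 994.6). Without low-cycling cell 18, which held all of that group's counts, at least 6.96 remains as a bound. At full depth it was found in 9, 6 and 3 cells with a log2 ratio of 6.03. Kif23, its partner motor, was found in 9 and 3 cells (log2 ratio 5.96, or 7.33 without low-cycling cell 10), and Ect2, which the complex recruits, in 9 and 4 cells (3.27, or 5.83 without low-cycling cell 18). Kif20a ranged from 0 to 756 CPM (median 176) and from 0 to 160 CPM (median 0), with a log2 ratio of 3.83 that became 5.53 without low-cycling cell 18. Prc1, which bundles the central spindle, departed from its neighbours, with 252 CPM in high-cycling and 284 CPM in low-cycling cells. In low-cycling cells 98.8% of the Prc1 counts came from cell 15, without which its log2 ratio of -0.17 was 6.10. The Prc1 ratio was -1.33 without high-cycling cell 4, and stood at 7.37 within C and -1.62 within N530 cells.

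Of the mitosis genes given here, Spc25, Racgap1, Kif4 and Plk4 were named by the size of their ratio, and the others were picked after their values were seen. Ccnb2, the second mitotic B-type cyclin, ranged from 0 to 936 CPM (median 112) in high-cycling cells and was found in 9, 10 and 2 cells. Its log2 ratio was 3.47 over all cells, 0.63 within N530 cells, and 7.20 without low-cycling cell 9. Aurka and Aurkb, the mitotic Aurora kinases, were found in 5 and 4 high-cycling cells and in no low-cycling cell. Cdc20, which starts anaphase, was found in 6 high-cycling and 6 middle cells and in no low-cycling cell, with 61.7% of its counts in 1 cell, and its lower bound of 6.92 on the log2 scale became 5.65 without cell 29. Ube2c, the ubiquitin-conjugating enzyme of the same pathway, was also common in low-cycling cells, in 9 of 13 against 10 of 13, so its log2 ratio of 2.88 was one of level more than of presence. It ranged from 0 to 1276 CPM (median 312) and from 0 to 180 CPM (median 28). Plk1 (Polo-like kinase) was found in 4 and 2 cells, and its log2 ratio of 1.47 came to 0.63 and 0.57, under the 2-fold limit, without high-cycling cells 40 and 2 (2.40 and 2.31 without low-cycling cells 30 and 11). Among genes of the spindle checkpoint, Bub1b stood at 192 and 140 CPM (5.32 within C and 0.12 within N530 cells), and Mad2l1 at 80.0 and 164 CPM (log2 ratio -1.04, with 5.37 within C and -2.31 within N530 cells). Mad2l1 was the single gene of the list that was lower by 2-fold or more, and 79.0% of its low-cycling counts came from 1 cell. Kif4 and Plk4, found in 4 high-cycling cells each and in no low-cycling cell (in 1 each at full depth), did not meet the within-set rule.

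**Figure D2:**
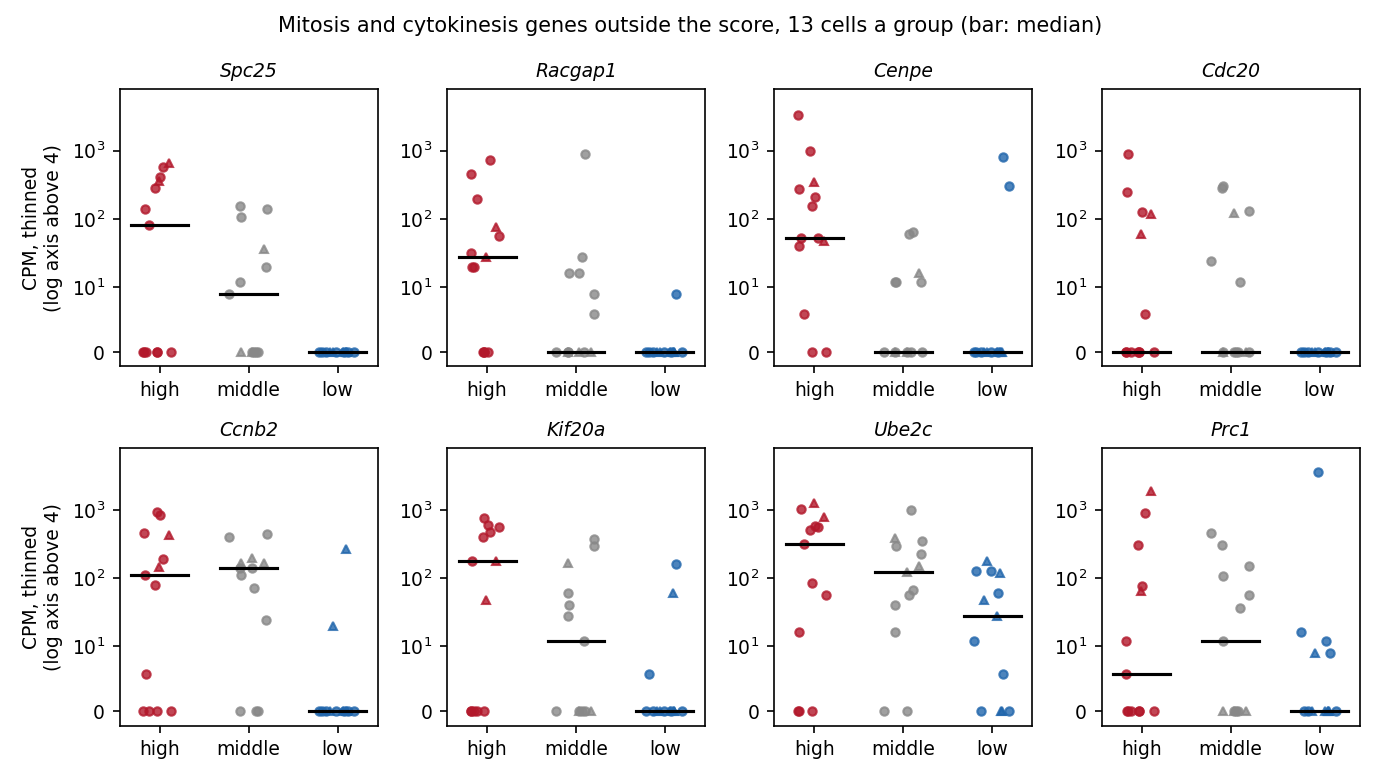
Each point is the CPM of 1 gene in 1 cell thinned to 250000 counts, on a log axis above 4 CPM, for 13 high-cycling, 13 middle and 13 low-cycling cells, with triangles for C cells, circles for N530 cells and a bar at the median. Spc25 and Cdc20 stand at 0 in all 13 low-cycling cells, whereas Ube2c is present in 9 of them and Prc1 reaches 3644 CPM in 1.

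DNA replication genes did not separate the groups as a list. Of 50 genes, 47 were tested, 9 were called higher (19.1%, beside 13.1% of all genes) and 7 lower (14.9%, beside 14.5%), and the median log2 ratio was -0.13, with 0.66 within C and -0.32 within N530 cells. Without the low-cycling cell that held the lowest sum of the 4 cardiomyocyte genes (cell 30), the median was 0.26. Summed over the list, high-cycling cells held 1440 to 5668 CPM (median 3584), middle cells 1820 to 4892 (median 3116) and low-cycling cells 108 to 11320 (median 3520). The widest spread was among the low-cycling cells, which held both the highest and the lowest sum of all 39 cells.

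The 3 highest replication sums of the 39 cells were those of low-cycling N530 cells. Cell 18 held 11320 CPM, led by Lig1 (DNA ligase) at 4252, Rrm2 (ribonucleotide reductase) at 2448, Mcm2 at 2264 and Mcm3 at 1880 CPM. Cell 30 held 7224 CPM, led by Cdc6, which loads the MCM helicase onto origins, at 656 CPM, followed by Rrm2 at 580 and Gins2 at 560 CPM. Cell 35 held 5828 CPM, led by Mcm2 at 1608 and Mcm4 at 1232 CPM. Their scores were 284, 107 and 54.6 CPM. At the other end, cell 14 held 108 CPM of replication genes, 196 CPM of mitosis genes and a score of 0. The next lowest low-cycling sum was 1132 CPM, in cell 9. The low-cycling group thus held cells with high replication sums, and "low-cycling" here means low in the G2 and M genes of the score.

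Single replication genes differed in direction. Mcm2, a subunit of the MCM helicase, ranged from 0 to 152 CPM (median 0) in high-cycling cells and from 0 to 2264 CPM (median 44) in low-cycling cells, and was found in 4, 8 and 8 of 13 high-cycling, middle and low-cycling cells. The log2 ratio was -4.22, with -2.22 within C and -5.92 within N530 cells, -5.51 without high-cycling cell 16 and -3.34 without low-cycling cell 18. Mcm3 (-1.65) and Mcm4 (-1.23) were also called lower, but Mcm3 came to -0.53 without low-cycling cell 18 (-2.48 without high-cycling cell 28) and Mcm4 to -0.59 without low-cycling cell 35. Mcm5, Mcm6 and Mcm7 were not called. Mcm7 stood at -1.67 (0.75 within C and -1.69 within N530 cells), and at -2.89 without high-cycling cell 31 and -0.89 without low-cycling cell 6. Mcm6 stood at -1.02 over all cells but at 0.90 and 0.29 within the sets, and at -1.89 and -0.59 without cells 17 and 6. Mcm5 stood at 0.30 (3.74 and -2.19 within the sets), and at -1.39 and 1.44 without cells 16 and 35. Hells, a chromatin remodeller, was found in 2 high-cycling and 8 low-cycling cells, with a log2 ratio of -4.90 that was -4.04 without low-cycling cell 11, and 165.2-fold lower with a counting interval of 29.3 to 6562 without high-cycling cell 40, which left 1 count. Pole, the leading-strand polymerase, was found in 1 and 5 cells (-3.16, or -2.29 without low-cycling cell 35, and a bound of -5.78 without cell 40, the single high-cycling cell that held it), and Rrm1 in 6 of each (-2.16, or -3.17 without cell 40). Cdc6 was found in 0 high-cycling, 2 middle and 2 low-cycling cells, and in 1, 3 and 2 at full depth.

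Tyms (thymidylate synthase) was found in 8 and 5 cells with a log2 ratio of 1.69, and 2.61 without low-cycling cell 30. Tk1 (thymidine kinase) was found in 4 and 1 cells, and its ratio of 3.84 rested on cell 19, without which it was 0.77 (a bound of 6.53 without low-cycling cell 30, the single one that held it). Rfc5, a clamp loader subunit, was found in 3, 6 and 1 cells, with a 38-fold ratio whose counting interval ran from 6.42 to 1540 (22.8-fold, 3.66 to 940.8, without high-cycling cell 40, and a log2 bound of 3.55 without low-cycling cell 35, which held the group's 1 count). With 19 cells a group its log2 ratio was -0.24. Exo1, a repair exonuclease, was found in 3 and 1 cells, with 84.2% of its counts in cell 21. Mcm10 was found in 6 and 3 cells, with a log2 ratio of 2.25 that was -0.78 without high-cycling cell 28, 2.87 without low-cycling cell 30 and -1.81 between the members titled C. Rrm2 was found in 12 and 8 cells with a log2 ratio of 0.91, 3.12 within C and 0.71 within N530 cells, and it was 2.59 without low-cycling cell 18, which held 71.2% of the low-cycling counts. Pcna, the sliding clamp, was found in 8 and 8 cells at 0.48, and ran from -0.06 to 0.75 when cells were left out. Except for the genes named by the size of their ratio, the replication genes given here were picked after their values were seen.

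**Figure D3:**
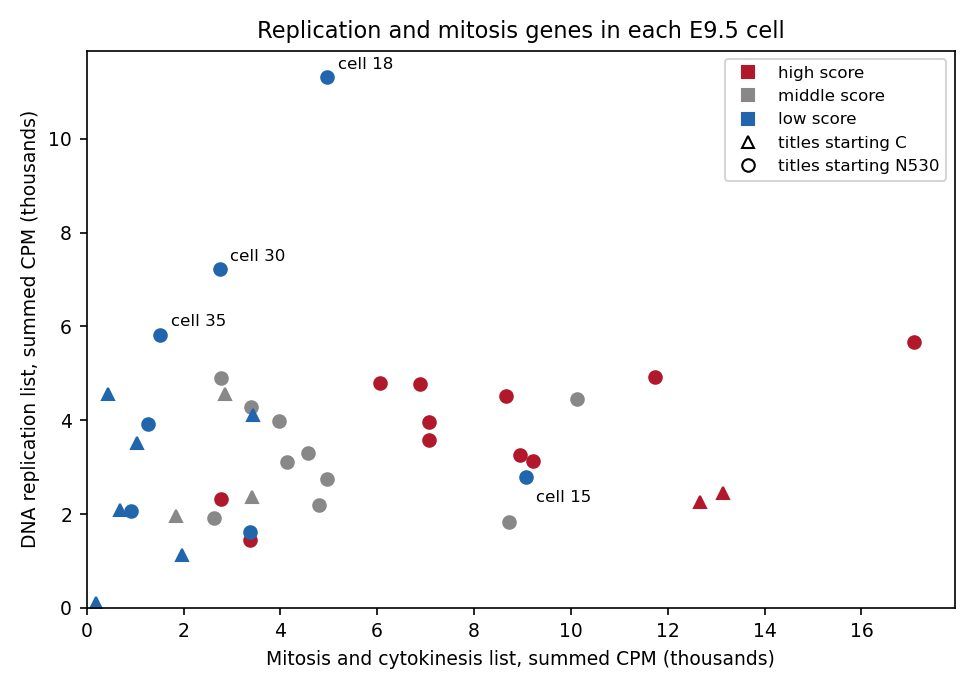
Each point is 1 of 39 E9.5 cells, placed by its summed CPM (axes in units of 1000 CPM) over the mitosis and cytokinesis list (horizontal) and over the DNA replication list (vertical), with colour for the score group and shape for the title set. Low-cycling cells 18, 30 and 35 hold the 3 highest replication sums (11320, 7224 and 5828 CPM), and low-cycling cell 15 lies among the high-cycling cells on the mitosis axis at 9068 CPM.

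Of the low-cycling cells whose mitosis sums lay in the high-cycling range, cell 15 held the highest. Its score of 310 CPM was the highest of the low-cycling group, while its 9068 CPM over the mitosis list was the seventh highest of the 39 cells. The sum was led by Prc1 at 3644, Cdca8 (a chromosomal passenger subunit) at 1688, Mad2l1 at 1688 and Ncapd2 (a condensin subunit) at 812 CPM, none of them in the score.

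The remaining cell cycle genes showed no common direction. Of 25 genes for chromatin of cycling cells tested, 4 were called higher and 1 lower, with a median of 0.22 (1.17 within C and -0.02 within N530 cells). H2afx, the histone variant marked at DNA breaks, was found in 9 and 3 cells (log2 ratio 2.21, or 3.48 without low-cycling cell 11). Tubb4b, a tubulin, was found in 7 and 6 cells (208 and 34.5 CPM, log2 ratio 5.29 without low-cycling cell 15). Its log2 ratio was 6.66 within C and 0.25 within N530 cells. Among 12 cyclin D and E, partner and activator genes, 0 were called higher and 1 lower, with a median of 0.71 (-0.24 within C and 1.01 within N530 cells). The gene called lower was E2f4, a factor of the resting-state complexes, found in 2 and 4 cells, and 91.1% of its low-cycling counts came from cell 35, without which its log2 ratio of -4.73 was -1.36 (-7.16 without high-cycling cell 4, and 0.95 between the members titled C). Among 19 inhibitors and pocket proteins, 3 were called higher and 3 lower, with a median of -0.40 over all cells but 0.78 within C and 0.36 within N530 cells, and -0.77 to 0.24 with 1 cell left out (lowest without cell 28, highest without cell 26). Ccng1, a p53 target, ranged from 0 to 156 CPM (median 4) in high-cycling and from 0 to 2260 CPM (median 200) in low-cycling cells, but its log2 ratio of -3.91 was 1.13 within C cells, so it was not called. With 1 cell left out the Ccng1 ratio ran from -4.74 to -3.12. Cdkn1a, the p21 inhibitor, was found in 1 high-cycling and 0 low-cycling cells.

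Sarcomere genes as a list had a median ratio near 0. Of 59 genes, 54 were tested, 5 were called higher and 3 lower, and the median log2 ratio was 0.02 with or without the 4 genes of the cardiomyocyte filter. The within-set medians were 0.19 and -0.18. Summed over all but the 4 filter genes, high-cycling cells held 29996 to 80652 CPM (median 57256) and low-cycling cells 7228 to 113088 CPM (median 51700). The low end was cell 30, which held 1564 CPM of the 4 filter genes where the next low-cycling cell held 15813, and 8792 CPM of all sarcomere genes where the next lowest sum was 51380. Without it the list median was -0.04. The lowest Myh6 and Ttn values below are also those of cell 30, which is 1 of the 3 cells with the highest replication sums. Myh7, Myom1, Lmod2 and Popdc2 below, and Srf, Gata4, Mef2c and Tbx20 among the transcription factors, were picked after their values were seen.

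Myh6, the alpha myosin heavy chain, ranged from 2704 to 24140 CPM (median 10128) in high-cycling cells and from 184 to 18304 CPM (median 3708) in low-cycling cells. The log2 ratio was 0.71, 0.50 within C and 0.41 within N530 cells. Ttn, the titin spring, ranged from 4068 to 68944 CPM (median 41900) and from 836 to 87368 CPM (median 13420), with a log2 ratio of 0.73 but -0.24 within C cells. Both genes belong to the filter and overlapped widely between groups. Myl4, the atrial and embryonic light chain, stood at 2715, 2949 and 2577 CPM in high-cycling, middle and low-cycling cells, and Flnc, which links filaments to the membrane, at 203, 572 and 192 CPM. In the middle group 1 cell held 5460 CPM of Flnc, and the median there was 40 CPM. Actc1, Tnnt2 and Myl7 were within 2-fold (-0.23, -0.14 and 0.16) and found in every cell of both groups. Myh7, the beta myosin heavy chain, was called higher, with 68 to 14404 CPM (median 3656) against 36 to 8276 CPM (median 988), a log2 ratio of 1.05 and within-set values of 3.85 and 0.78. That call was lost, at 0.81 to 1.00, without any one of 10 cells, and the ratio was 0.50 between the N530 members. Myom1, the M-band protein, stood at 1539 and 717 CPM, with 3.78 and 1.04 within the sets, but was under 2-fold (log2 0.87 to 1.00) without any one of 5 cells and was 0.55 between the N530 members.

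Other sarcomere genes with large ratios differed in level and in the number of cells that held them. Pdlim3, a Z-disc protein, was found in 4 and 6 cells, with 7.38 and 124 CPM (log2 ratio -4.07, or -3.48 without low-cycling cell 14). Obsl1 was found in 3 and 3 cells at -2.80 (-4.33 without high-cycling cell 21 and -1.88 without low-cycling cell 10). Popdc2, a membrane protein of striated muscle, stood at 422 and 1010 CPM (-1.26, or -0.65 without low-cycling cell 15 and 0.03 between the members titled C). Lmod2, which extends thin filaments, was found in 6 and 7 cells at 2.58 (3.46 without low-cycling cell 7). Xirp1 was found in 11 and 7 cells at 2.83, but -0.47 within C cells, and 67.6% of its high-cycling counts came from 1 cell. Of 31 calcium and membrane excitation genes, 2 were called higher and 2 lower, with a median of 0.00 (-0.31 and 0.08 within the sets). Jph2, which holds the membrane close to the calcium store, ranged from 0 to 524 CPM (median 60) in 9 of 13 high-cycling cells and from 0 to 36 CPM in 4 of 13 low-cycling cells, with a log2 ratio of 4.57 (5.27 without low-cycling cell 39). Itpr1, a calcium release channel, stood at 440 and 83.4 CPM but at -1.45 within C cells.

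Cardiac transcription factors as a list had a median log2 ratio of -0.02, with -1.28 within C and -0.17 within N530 cells. Of 46 genes, 35 were tested, 2 were called higher (5.71%, beside 13.1% of all genes) and 7 lower (20.0%, beside 14.5%). Gata6, a zinc finger factor of the early heart, showed the difference in presence as well as in level. It was found in 6 of 13 high-cycling, 10 of 13 middle and 12 of 13 low-cycling cells, at 0 to 456 CPM (median 0) and 0 to 576 CPM (median 232) in the outer groups. The log2 ratio was -1.72, with -2.11 within C and -2.05 within N530 cells, and it was -2.46 without high-cycling cell 16. Tbx5, the T-box factor of the left ventricle and atria, ranged from 0 to 228 CPM (median 24) and from 0 to 612 CPM (median 56), found in 9, 13 and 12 cells. Its log2 ratio was -1.68, with -2.95 and -1.51 within the sets. Srf, which drives sarcomere genes with Myocd, stood at 27.4 and 133 CPM (-2.28, or -3.02 without high-cycling cell 2). Hand1 was found in 3 and 5 cells at -3.66 (-2.87 without low-cycling cell 14, and 70.2-fold lower with a counting interval of 19.1 to 584.5 without high-cycling cell 17, which left 2 counts). Zfpm2, a partner of Gata4, was found in 1 cell of each group, so its ratio compares single cells.

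Nkx2-5 stood at 41.5 and 11.7 CPM and was found in 9 and 5 cells, but 76.3% of its high-cycling counts came from 1 cell and the log2 ratio of 1.83 was -1.28 within C cells. Gata4 stood at 187 and 108 CPM (log2 0.80, or 0.05 without high-cycling cell 29 and 1.46 without low-cycling cell 26). Mef2c stood at 768 and 688 CPM (0.16, or -0.75 without high-cycling cell 21 and 1.20 without low-cycling cell 35). Tbx20 stood at 381 and 648 CPM (-0.77, with -1.41 and -0.41 within the sets), and 55.9% of its high-cycling counts came from cell 28, without which it was -1.83. Tbx18, a marker of the sinus venosus and epicardium, was found in 2 and 3 cells. Hey2, the ventricular Notch target, was called higher but was found in 5 and 1 cells, with a log2 ratio of 3.02 that was 1.26 without high-cycling cell 28, with a bound of 6.40 without low-cycling cell 15, the single one that held it. Of 28 embryonic progenitor and oncofetal genes, 0 were called higher and 5 lower (17.9%, beside 14.5% of all genes), with a median of 0.04 (-0.35 and 0.15 within the sets). Nes, an intermediate filament of immature cells, was found in 3, 8 and 5 cells at -3.76 (-4.56 without high-cycling cell 40 or 16, -3.12 without low-cycling cell 39, and 0.44 with the score taken as a mean rank), and Crabp2, a retinoic acid carrier, in 1 and 6 cells at -5.29 (-4.66 without low-cycling cell 10, and a bound of -5.91 without cell 2, the single high-cycling cell that held it). Chamber lists showed no shared direction across the sets. Atrial and inflow genes had a median of -0.65 (11 tested, 0.02 within C and -1.51 within N530 cells), ventricular genes 0.16 (13 tested, 2.42 and -0.17), and genes of the atrioventricular canal and outflow tract -0.57 (10 tested, -1.34 and 1.39). With 1 cell left out these medians ran from -0.81 to 0.03, from -0.21 to 0.58 and from -1.13 to 0.09. Nppa, the atrial natriuretic peptide, stood at 763 and 2352 CPM, with 74.1% of the low-cycling counts in 1 cell.

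Genes of energy metabolism had medians slightly below 0, as all genes did, and a few members stood apart. Of 35 fatty acid oxidation and citrate cycle genes, 1 was called higher (2.86%, beside 13.1% of all genes) and 8 lower (22.9%, beside 14.5%), with a median of -0.17 (-0.07 and -0.72 within the sets). Decr1, a mitochondrial enzyme that prepares unsaturated fatty acids for oxidation, was found in 1, 3 and 9 of 13 high-cycling, middle and low-cycling cells. It stood at 8 CPM in the single high-cycling cell and at 0 to 1912 CPM (median 40) in low-cycling cells, a 587-fold difference with a counting interval of 162 to 4853. Its log2 ratio was -9.20 over all cells, -6.61 within C and -8.09 within N530 cells, with a bound of -8.50 without high-cycling cell 4, which held both counts of its group. Without low-cycling cell 18 Decr1 was 377.0-fold lower, with a counting interval of 104.0 to 3119. Suclg1, a citrate cycle enzyme, ranged from 0 to 472 CPM (median 24) and from 0 to 2184 CPM (median 300), with a log2 ratio of -2.89 (-3.60 without high-cycling cell 17), and was found in 8, 11 and 11 cells. Cd36, the fatty acid transporter, was found in 5, 5 and 8 cells at -3.02 (-3.83 without high-cycling cell 25 and -2.11 without low-cycling cell 26). The list as a whole stood at 7228 CPM in high-cycling, 10884 in middle and 8965 in low-cycling cells, so it did not follow the order of the score.

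Glycolysis and lactate genes had a median of -0.19 (-0.53 and -0.28 within the sets), with 1 of 24 called higher and 4 lower. Hk2 (hexokinase) stood at 694, 1003 and 1885 CPM and was found in nearly every cell, with a log2 ratio of -1.44. That ratio came mainly from the N530 cells, at -1.88 against -0.19 within C cells, and it was 0.51 between the members titled C. Slc2a3, a glucose transporter, was found in 4, 8 and 9 cells at -3.13 (-4.02 without high-cycling cell 2 and -2.26 without low-cycling cell 26). Of 85 genes for the respiratory chain and ATP synthase, 3 were called higher and 6 lower, with a median of -0.17 (0.30 and -0.50 within the sets). Ndufa9, a complex I subunit, stood at 574 and 138 CPM, found in 9 and 8 cells.

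The 23 ribosome assembly genes had a median of 0.80, with 0.61 within C and 0.35 within N530 cells, and 0.08 when 19 cells a group were compared. Of these genes 3 were called higher (13.0%, beside 13.1% of all genes) and 2 lower (8.7%, beside 14.5%). Nop56, a core protein of the nucleolar particles that modify ribosomal RNA, was found in 9 and 5 cells at 2.46 (1.39 without high-cycling cell 27 and 3.63 without low-cycling cell 6). Rrp1b was found in 6 and 5 cells at 3.77 (3.01 without high-cycling cell 17 and 4.49 without low-cycling cell 41), and Nhp2 in 6 and 5 cells at 3.25 (2.50 and 2.58 without high-cycling cells 17 and 21). The middle cells held more of the list than either outer group, at 5317 CPM against 4330 and 3110. The 77 cytosolic ribosomal protein genes had a median of -0.09 (0.47 and -0.25 within the sets), with 2 called in each direction. Rpl22 ranged from 0 to 464 CPM (median 292) and from 0 to 152 CPM (median 80), with a log2 ratio of 1.47, and Rps21 stood at 1.22 (0.97 without high-cycling cell 25) and Rpl9 at -1.21, all in the same direction within both sets. Reads of these genes may be shared with processed copies, so single members are uncertain. The 75 mitochondrial ribosomal protein genes had a median of -0.28, with 7 called higher and 13 lower and within-set medians of 0.38 and -1.10.

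**Figure D4:**
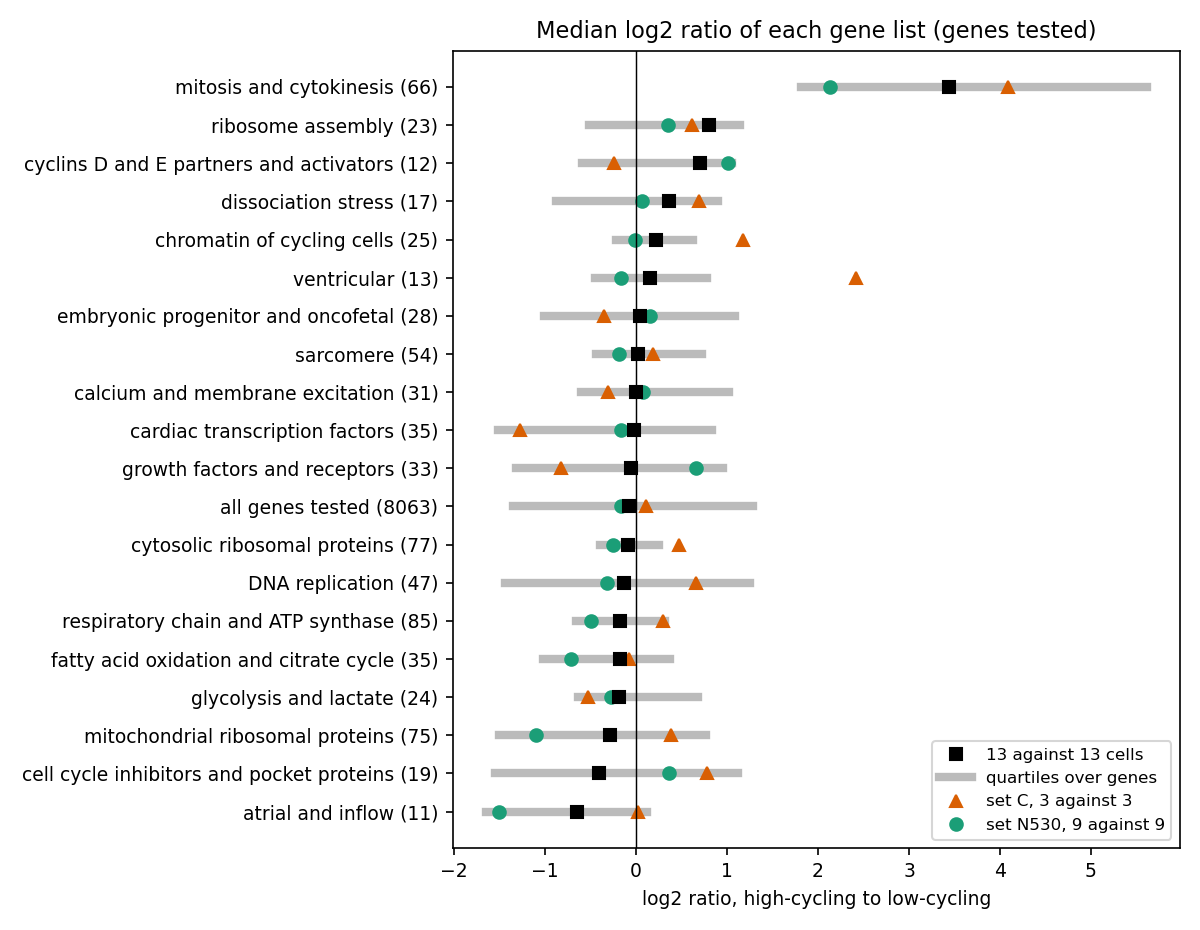
For 19 gene lists and all genes tested, the black square is the median log2 ratio of 13 high-cycling to 13 low-cycling cells over the genes tested (number in brackets), the grey bar spans the quartiles over genes, and the triangle and circle are the medians within the C cells and within the N530 cells. The mitosis and cytokinesis list stands at 3.44, with 4.09 and 2.13 within the sets, and every other list drawn lies within 1 of 0 over all cells. Lists of other cell types, of the atrioventricular canal and outflow tract and of nuclear RNA are not drawn.

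Outside the replication, mitosis and chromatin lists, 268 genes called higher and 435 called lower reached 50 CPM and 7 of 13 cells in the group where they were higher. The share of all tested genes that reach these limits in each group was not computed, so these counts are not compared. C330027C09Rik, named Cip2a in RefSeq and known as an inhibitor of the phosphatase PP2A, was found in 7, 7 and 0 cells and was at least 395-fold higher (a log2 bound of 8.62, or a bound of 7.51 without high-cycling cell 36). Fbxo5 (Emi1), which holds back the anaphase-promoting complex, was found in 8, 6 and 1 cells at a 150-fold ratio with a counting interval of 51 to 730 (62.1-fold, 20.9 to 304.1, without high-cycling cell 31). With the score taken as a mean rank or as summed log2 values the Fbxo5 log2 ratio turned to -0.16 and -0.17. Fam83d, a spindle protein, was found in 7, 4 and 0 cells with a log2 bound of 5.95, and Trim59 in 7, 7 and 0 cells with a bound of 6.97 (5.53 without high-cycling cell 36). At full depth C330027C09Rik, Fam83d and Trim59 were each found in 1 low-cycling cell. Wdr83 (6.53, or 5.57 and 7.58 without cells 27 and 9), Nckap1 (5.88, or 4.06 and 6.63 without cells 31 and 6), Hsph1 (5.43, or 4.00 and 6.31 without cells 28 and 6) and Acvr2b (5.37, or 4.38 without cell 19, and 573.2-fold with a counting interval of 102.5 to 22677 without low-cycling cell 41, which left 1 count) each drew more than 50% of their high-cycling counts from 1 cell. A share of 50% or more from 1 cell of the higher group was found for 725 of the 1060 genes called higher (68.4%) and for 552 of the 1170 called lower (47.2%).

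The genes with the lowest ratios follow, and ranking by ratio favours genes held by few high-cycling cells. 1810026B05Rik, which RefSeq lists as the long noncoding RNA Chaserr, was found in 2, 8 and 10 cells, at 0 to 32 CPM and 0 to 720 CPM (median 84), with a log2 ratio of -5.73 (-7.20 without high-cycling cell 29). Grn (progranulin, a lysosomal protein) was found in 1, 6 and 7 cells at -6.36 (0.19 with the score taken as a mean rank), and Erp44, a chaperone of the early secretory pathway, in 0, 8 and 7 cells with a bound of -6.27 (1, 9 and 8 cells at full depth). Rfx7 was found in 2 and 9 cells (-5.79, or 204.9-fold lower with a counting interval of 36.4 to 8130 without high-cycling cell 40, which left 1 count), Ulk2, a kinase of autophagy, in 1 and 8 cells (-6.18, or -5.36 without low-cycling cell 11, and a bound of -6.80 without cell 31, the single high-cycling cell that held it), and Hspb3, a small heat shock protein of muscle, in 1, 8 and 8 cells (-6.17, or -5.24 without low-cycling cell 15). Cc2d2a, a protein of the ciliary base, was found in 1 and 7 cells, a 950-fold difference with a counting interval of 170 to 37562 (log2 -9.89, with a bound of -8.19 without high-cycling cell 25, which held the group's 1 count). Without low-cycling cell 26 it was 237.3-fold, with an interval of 42.1 to 9413.

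Presence in cells is less exposed to a single rich cell than summed counts. By this measure, set after the values were seen, 4 tested genes were found in at least 8 more high-cycling than low-cycling cells, namely Cenpe, Racgap1, Uap1 and Ythdf1. The other direction held 13 genes. Uap1, an enzyme of sugar nucleotide synthesis, was found in 10 and 2 cells (log2 3.70, or 2.93 without cell 29, 68.0-fold with a counting interval of 23.0 to 332.3 without low-cycling cell 7, which left 3 counts, and -0.50 between the members titled C), and Ythdf1, a reader of methylated RNA, in 9 and 1 cells (5.04, or 4.44 without cell 27, and a bound of 6.66 without cell 30, the single low-cycling cell that held it). Mkln1 was found in 4 high-cycling, 11 middle and all 13 low-cycling cells, while its log2 ratio of -1.63 was -0.36 without low-cycling cell 26 and -2.52 without high-cycling cell 21. Psmd8, a proteasome subunit, was found in 5, 9 and 13 cells, with a log2 ratio of -1.09 that was 0.51 within C cells. With 1 cell left out the Psmd8 ratio ran from -1.83 to -0.82. The number of genes found per cell at 250000 counts had a median of 3359 in high-cycling, 4413 in middle and 3999 in low-cycling cells. Among the N530 members of the outer groups it was 3257 against 2574. Between the 9 highest and 9 lowest N530 cells it was 3257 against 4320, and between the 3 highest and 3 lowest C cells 4626 against 3999. Its part in these presence counts was not tested.

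**Figure D5:**
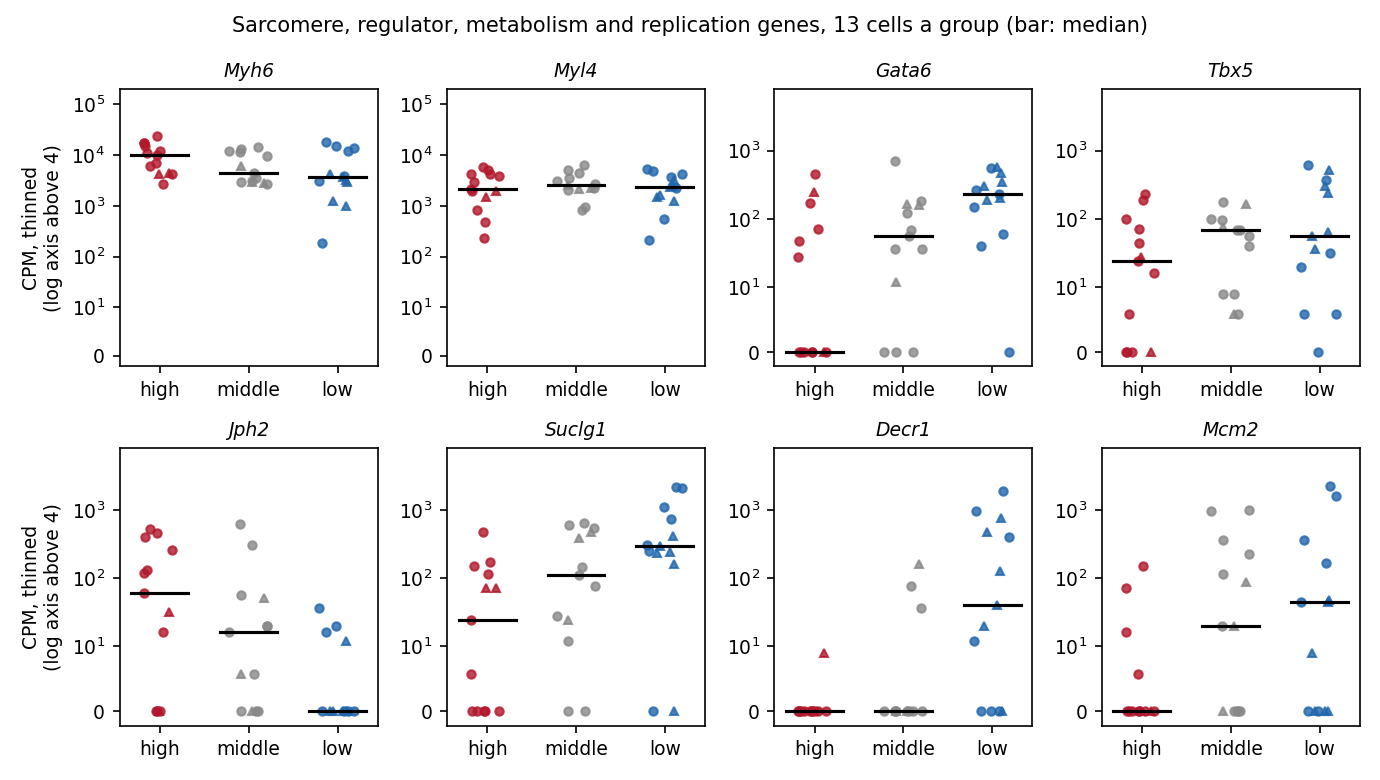
Each point is the CPM of 1 gene in 1 cell thinned to 250000 counts, on a log axis above 4 CPM, for 13 high-cycling, 13 middle and 13 low-cycling cells, with triangles for C cells, circles for N530 cells and a bar at the median. Myh6 and Myl4 are found in all 13 cells of each group and overlap, Gata6 is found in 6 high-cycling and 12 low-cycling cells, and Decr1 in 1 and 9.

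Markers of other heart cell types differed in level from list to list. Pecam1, Cdh5, Emcn, Tie1, Upk3b, Postn, Ptprc, Csf1r, C1qa, Epcam and Foxa2 held no count in any group, at 250000 counts or at full depth. Other epicardial and mesenchymal markers were found. At 250000 counts, Wt1 held 14, 737 and 62 counts in the high-cycling, middle and low-cycling groups. Col3a1 held 0, 1 and 169 counts, the last in 1 cell, Col1a1 10, 0 and 2, and Tcf21 0, 0 and 9. Hbb-y, an embryonic globin, held no count at 250000 counts but was found in 4 high-cycling, 1 middle and 2 low-cycling cells at full depth. Hba-x and Hbb-bh1 held 32 counts each in 1 high-cycling cell and none in low-cycling cells. Endothelial and endocardial genes, 4 of 20 at 10 CPM or more, summed to 0 to 928 CPM per high-cycling cell (median 40) and 0 to 180 CPM per low-cycling cell (median 16). Their median log2 ratio was 2.19, with 3 of the 4 past 2-fold higher, and the sets differed, at -3.47 within C and 4.14 within N530 cells. Over all cells the median was 0.78 without high-cycling cell 16, 1.39 without high-cycling cell 31 and 3.03 without low-cycling cell 11. Epicardial genes, 7 of 14, summed to 0 to 1140 (median 116) and 4 to 1628 CPM (median 240), with a median log2 ratio of -0.65 that ran from -1.68 without high-cycling cell 21 to -0.20 without low-cycling cell 11. Fibroblast and cushion mesenchyme genes, 8 of 17, summed to 292 to 6348 CPM (median 2636) and 1236 to 7168 CPM (median 2104), with a median log2 ratio of -0.81 that ran from -1.65 without high-cycling cell 25 to -0.15 without low-cycling cell 30, including Vim at 99.1 and 338 CPM (log2 -1.77, or -1.17 without low-cycling cell 35). Macrophage genes summed to 0 to 4 and 0 to 384 CPM, where 1 of 13 genes, Lyz2, was found in 1 high-cycling and 5 low-cycling cells. Erythroid (12 in the table), endoderm (12) and neural crest (8) genes had no member at 10 CPM. The part of other cells' RNA in the differences above was not tested. Dissociation stress genes had a median of 0.36 (17 tested, 2 called in each direction, 0.69 and 0.06 within the sets), with Ddit3 in 2 and 5 cells and Atf3 in 3 and 4, and nuclear RNAs -0.25 (6 tested, 0 higher and 1 lower, -2.06 and 0.76 within the sets). Of 33 growth factor and receptor genes, 4 were called higher and 5 lower, with a median of -0.06 (-0.82 and 0.66 within the sets).

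The E12.5 cells, cut by the same score, are set beside these values without a comparison, because their 9 highest and 9 lowest cells (of 27 that held enough counts) had other score limits, 2877 to 9500 and 0 to 86.8 CPM, and other title sets. There the mitosis list had a median log2 ratio of 5.79, the replication list 1.77, the sarcomere list -0.67 and the cardiac transcription factors 0.00. Spc25 stood at 3.35, Racgap1 at 5.41 and Cip2a (C330027C09Rik) at 7.89. Mcm2, -4.22 at E9.5, stood at 2.70, Hells at 2.68 and Gata6 at -0.05, while Decr1 stood at -7.78 and Pdlim3 at -4.30.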

How the data were processed

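Cells were sorted, captured on a Fluidigm C1, and their cDNA was made with SMART-Seq V4 chemistry and read in single-end NextSeq runs. Read mapping was done with OLego. Raw counts per gene symbol, from featureCounts, were deposited, and the submitters' processing notes name GRCm38 (mm10) as the build. The deposited TPM were derived by the authors from these counts and served only as an alternative. From the counts, each cell was thinned at random to 250000 counts (seed 1), equal in depth for all cells, and log2 ratios of summed counts were taken between groups of 13 cells for genes at a mean of 10 CPM or more, the score genes apart. A group without a count was set at 3 counts (0.923 CPM). Counting intervals are exact at 95% and cover counting error only, since the reads carried no molecular identifiers. The labels name no animal, so no test was made. The steps were run on simulated counts with known changes. That run checks the code, not how reliable the 2-fold calls are in these cells. No 2 cells held identical counts. Doublets were not called.

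Named genes were the score genes, 10 genes the study named, up to 4 genes per list with the largest absolute ratios, and, outside the cell cycle lists, the 12 highest and 12 lowest ratios among called genes at 50 CPM or more in at least 7 of 13 cells, others being marked as chosen later. Some of these are left out of the text. The members and lists were chosen with earlier results of these data known. Scripts used Python 3.11.15, NumPy 2.4.6, pandas 2.3.3 and SciPy 1.17.1, and R 4.3.3 with edgeR 4.0.16 for an alternative normalization. Alternatives changed the depth, unit, scaling, gene filter, group size, score, cell filter and title set, and left out each cell in turn.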

Additional observations from a re-analysis of the deposited data

How the results depend on the processing

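No paired analysis was possible because the cells carry no replicate numbers beyond their order of accession. The numbers of genes called, 1060 higher and 1170 lower, were 594 and 818 with the deposited TPM, 682 and 1244 with means of log2(CPM + 1), and 514 and 548 with genes at 50 CPM or more, the latter because fewer genes were tested. Under the other alternatives both counts stayed within 1.5-fold, and they ran from 946 to 1144 and from 1032 to 1252 when each of the 26 cells was left out. Within 1 title set alone no such count exists, since a call needs both sets. The median of the mitosis and cytokinesis list, 3.44, stayed above 0 under every alternative run. It was 2.01 as a difference of mean log2(CPM + 1) and 1.86 as the ratio of summed CPM, and 3.06 to 3.95 with a cell left out. The DNA replication list (-0.13) stood at 0.66 within set C and between -0.45 and 0.26 with a cell left out. The cardiac transcription factor list (-0.02) stood at -1.28 within set C and -1.08 between the group members titled C, and between -0.26 and 0.09 with a cell left out. The sarcomere list (0.02) ran from -0.06 to 0.17 with a cell left out. The causes were not tested. The scaling factors of edgeR shifted all ratios by 0.05.

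Of the 78 named genes called, 65 moved by more than 1.5-fold when a single cell was left out, and 1, Mcm10, turned sign (-0.78 to 2.87 over the cells left out). Signs also turned for Atf3 with mean log2(CPM + 1) (-0.0167), for Rfc5 with 19 cells a group (-0.24), and for Nes (0.44), Fbxo5 (-0.16) and Grn (0.19) with the score taken as a mean rank. With the score as summed log2(CPM + 1), Fbxo5 stood at -0.17. Between the members titled C, Mcm10 stood at -1.81, E2f4 at 0.95, Popdc2 at 0.0287, Hk2 at 0.51 and Uap1 at -0.50. The mean of the within-set ratios and the fit without low-cycling cell 30 were added after the data were seen. The first gave 0.53 for the replication list and -0.50 for the cardiac transcription factor list, which stood at -0.63 with the mean-rank score. Depth limits any gene held by few cells.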
